A study of Drosophila melanogaster with 6 samples.

Results

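The HP1a gene and the lamin gene, Lam, were taken by Su(var)205's identifier, FBgn0003607, and by FBgn0002525 from the table of HP1a RNAi against GFP RNAi. They are 2 of the 535 features listed there, and 2 of the 582 distinct features listed in the 2 tables of the series. Su(var)205's name comes from its discovery as a suppressor of variegation, and it is called the HP1a gene here, as in the labels. The study sequenced poly(A)-selected RNA of S2 cells, an embryonic Drosophila line that resembles haemocytes. All cells were kept at 25 degrees in Schneider medium with 10% serum and received double-stranded RNA with a transfection reagent for 5 days. The double-stranded RNA was directed against HP1a (HP1a RNAi, 2 libraries), against dKDM4A, a histone H3 demethylase (dKDM4A RNAi, 2 libraries), or against GFP, the control (GFP RNAi, 2 libraries). Whether replicate libraries are separate cultures is not stated in the labels, so the spread behind each p-value may be technical. RNAi acts on the transcript and the series measured RNA, so the level of HP1a or lamin protein was not measured.

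HP1a is the founding member of the heterochromatin protein 1 family. Its chromodomain binds histone H3 methylated in heterochromatin, and its chromoshadow domain forms dimers and recruits partner proteins. Lam encodes the B-type lamin of the fly, an intermediate filament protein that lines the inner nuclear membrane and anchors much of the silent chromatin at the nuclear edge. A separate gene, LamC, encodes the A-type lamin.

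Both genes were lower in HP1a RNAi than in GFP RNAi. The HP1a gene, which the treatment targeted, was left at 60.1% of its GFP RNAi level, and Lam at 81.4%. For both genes the 2 HP1a RNAi libraries lay below both GFP RNAi libraries. Rows were listed on these same libraries, which favours such separation. The groups did not overlap in any other listed row named below either. Nor did they overlap in listed rows with a wide replicate spread, such as Amy-p and Egfr. The share of all listed rows without overlap was not counted, so the separation is not read as particular to these genes. Of 8287 features that the authors tested, 6.46% were listed at an adjusted p below 0.05, with 2.28% lower and 4.18% higher. Limma, a test run here on the listed rows alone, called 98.1% of them, with 34.2% lower and 63.9% higher, and these rows had been listed on the same libraries.

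The HP1a gene lies on chromosome 2L from 8209626 to 8211122 on the minus strand, with 2 annotated transcripts of 4 and 5 exons. Normalized counts are taken here to be counts divided by a size factor per library. For the HP1a gene they were 12834 and 15705 in HP1a RNAi replicates 1 and 2. In GFP RNAi replicates 1 and 2 they were 21963 and 25507. The means were 14269 ± 2030 in HP1a RNAi and 23735 ± 2506 in GFP RNAi (SD, n = 2 each). The highest HP1a RNAi library was therefore below the lowest GFP RNAi library, and the gap between the group means exceeded either SD. Taking each HP1a RNAi library against each GFP RNAi library gave remaining levels between 50.3% and 71.5%. Counts of the targeted gene thus remained in both HP1a RNAi libraries, and whether they come from intact transcript was not tested.

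The log2 fold change of the HP1a gene was -0.74 with a standard error of 0.145 (limma, adjusted p = 0.0107), a change that the 95% interval places between 46.0% and 78.2% of the GFP RNAi level. In the authors' deposited table the log2 fold change was -0.69, with a standard error of 0.142 and an adjusted p of 4.99e-05. The exact permutation test of 2 against 2 libraries gave p = 0.333 (two-sided), the smallest value this design allows. The limma call held without any 1 of the 4 libraries.

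Lam lies on the same arm, chromosome 2L, from 5542480 to 5546642 on the plus strand, with 4 annotated transcripts of 3 or 4 exons. Its normalized counts were 30175 and 27524 in HP1a RNAi replicates 1 and 2, against 35584 and 35294 in GFP RNAi replicates 1 and 2. The means were 28850 ± 1874 in HP1a RNAi and 35438 ± 205.1 in GFP RNAi (SD, n = 2 each). The groups did not overlap, as in every other listed row named here, and the share over all listed rows was not counted. The GFP RNAi libraries were nearly equal, and most of the spread was between the HP1a RNAi libraries.

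The log2 fold change of Lam was -0.30 with a standard error of 0.0929 (limma, adjusted p = 0.0311), and the 95% interval ran from 68.6% to 96.4% of the GFP RNAi level. In the authors' deposited table the log2 fold change was -0.29, with a standard error of 0.085 and an adjusted p of 0.0137. The call rested on all 4 libraries. It was lost without HP1a RNAi replicate 1 (limma adjusted p = 0.0598) or HP1a RNAi replicate 2 (limma adjusted p = 0.149). It was also lost without GFP RNAi replicate 1 (limma adjusted p = 0.0968) or GFP RNAi replicate 2 (limma adjusted p = 0.0897).

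**Figure D1:**
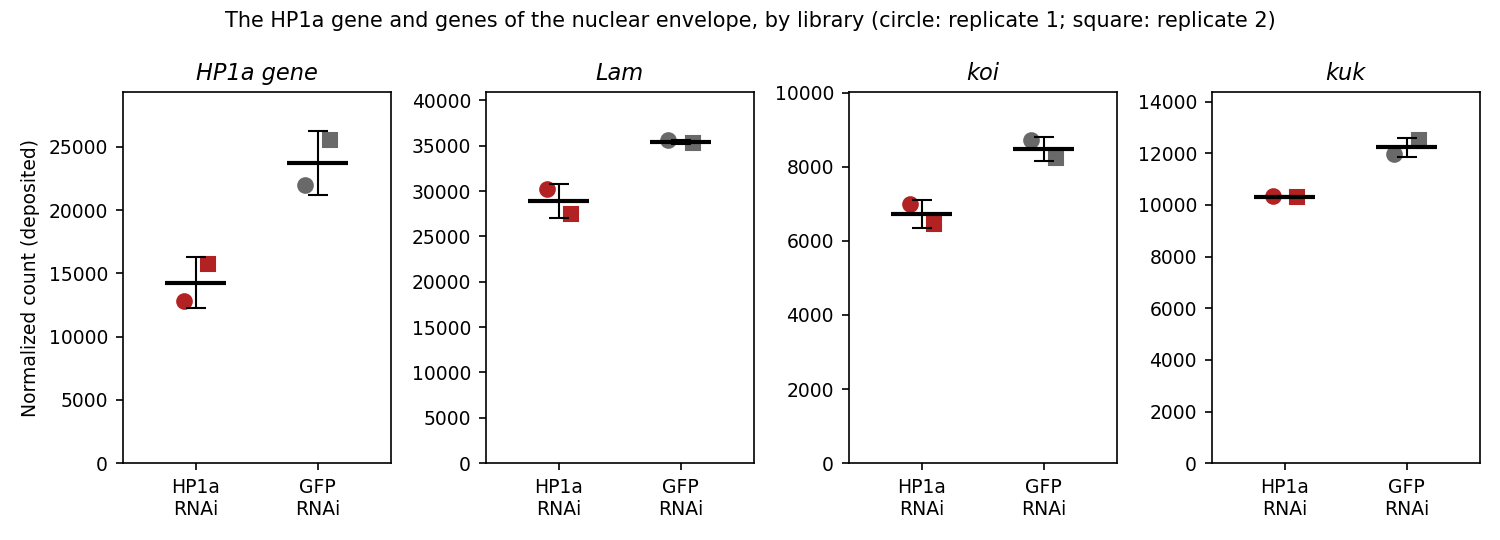
Deposited normalized counts of the HP1a gene, Lam, koi and kuk in the 2 HP1a RNAi libraries (red) and the 2 GFP RNAi libraries (grey), with the group mean as a thick line and the SD as a bar; each axis starts at 0 and has its own scale. In all 4 genes both HP1a RNAi libraries lie below both GFP RNAi libraries, which listing on these same libraries favours. The HP1a gene is at 60.1% and Lam at 81.4% of the GFP RNAi mean.

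The replicate libraries ordered the genes differently. The HP1a gene was higher in replicate 2 than in replicate 1, by 0.29 in HP1a RNAi and by 0.22 in GFP RNAi on the log2 scale. Lam was lower in replicate 2, by 0.13 in HP1a RNAi and by 0.01 in GFP RNAi on the same scale. The median absolute difference between replicates over the 535 listed rows was 0.11 in HP1a RNAi and 0.12 in GFP RNAi. The replicate difference of the HP1a gene was larger than that of 82.8% of listed rows in HP1a RNAi and of 69.5% in GFP RNAi. For Lam these shares were 57.0% in HP1a RNAi and 5.23% in GFP RNAi.

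Per kilobase of annotated exon, both genes were among the most abundant listed transcripts. The HP1a gene has 1109 bases of exon and Lam 3737 bases. The HP1a gene had a level of 12867 normalized counts per kilobase in HP1a RNAi and 21402 in GFP RNAi. Lam had a level of 7720 normalized counts per kilobase in HP1a RNAi and 9483 in GFP RNAi. Among 461 listed genes with annotated exons, the HP1a gene ranked 19 in HP1a RNAi and 13 in GFP RNAi by this level, and Lam ranked 29 in HP1a RNAi and 24 in GFP RNAi. The HP1a gene was thus above Lam per kilobase in each of the 4 libraries, at 1.43 and 1.92 times its level in HP1a RNAi replicates 1 and 2 and at 2.08 and 2.44 times in GFP RNAi replicates 1 and 2.

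The ratio of the HP1a gene to Lam within a library does not depend on that library's size factor. The log2 ratio of normalized counts was -1.23 and -0.81 in HP1a RNAi replicates 1 and 2, against -0.70 and -0.47 in GFP RNAi replicates 1 and 2. Both HP1a RNAi libraries were below both GFP RNAi libraries. The mean log2 ratio was -1.02 ± 0.30 in HP1a RNAi and -0.58 ± 0.16 in GFP RNAi (SD, n = 2 each). The difference of -0.44 means that the ratio in HP1a RNAi was 73.8% of that in GFP RNAi. The exact permutation test gave p = 0.333 (two-sided), the smallest value that 2 against 2 libraries allow whatever the difference, so it cannot show whether the HP1a gene decreased more than Lam. The difference was -0.23 without HP1a RNAi replicate 1 and -0.65 without HP1a RNAi replicate 2, and in both cases it stayed below 0.

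Among the 189 lower rows of the table, the HP1a gene ranked 57 by the size of its deposited log2 fold change and Lam ranked 152. By the lowest deposited p, the HP1a gene ranked 172 and Lam 375 of all 535 rows. Of the 60 listed rows with a mean of at least 10000 normalized counts, 28 were lower and 32 higher, and their log2 fold changes ran from -0.74 to 1.18. The HP1a gene held the lowest of these values. The median log2 fold change of the 28 lower rows was -0.32, close to the -0.30 of Lam.

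**Figure D2:**
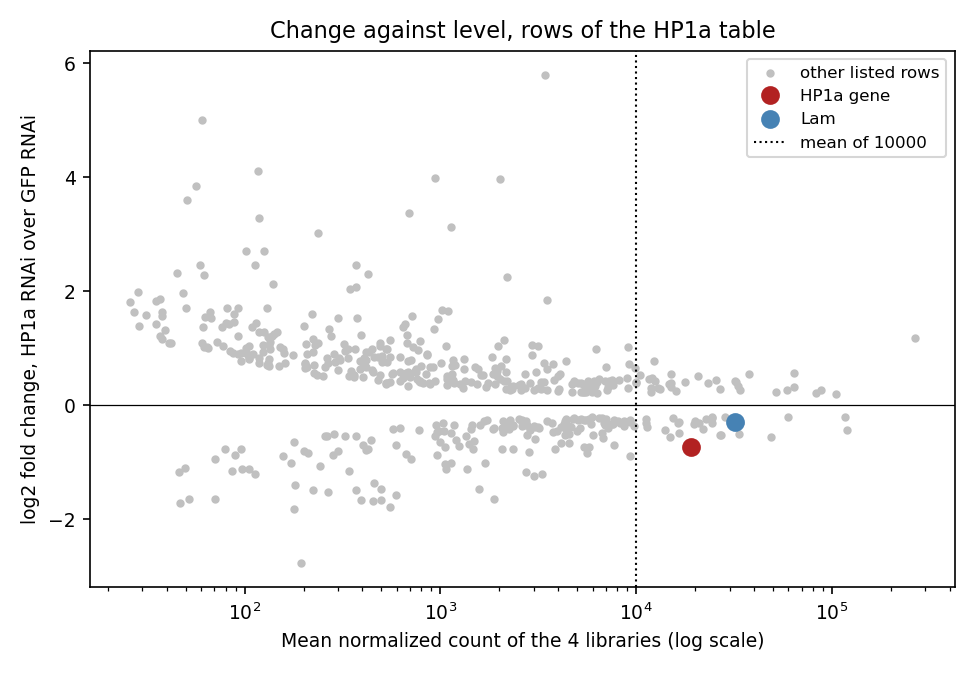
Log2 fold change of HP1a RNAi over GFP RNAi (limma) against the mean normalized count of the 4 libraries on a log scale, for the 535 rows of the HP1a table; the HP1a gene is red, Lam is blue, and the dotted line marks a mean of 10000. The HP1a gene at -0.74 is the lowest point to the right of that line, and Lam at -0.30 lies within the band of the other lower rows there; the gap around 0 reflects that only listed rows are plotted.

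Genes that work with HP1a or with lamin were looked up in 5 lists with 113 genes, of which 109 could be matched to an identifier. Besides the HP1a gene and Lam, 4 of these genes were listed after HP1a RNAi, namely HP1D3csd, stwl, koi and kuk. With the HP1a gene and Lam that makes 6 of 109 matched genes, or 5.50%, beside the 6.46% listed among all features that the authors tested. How many of the 109 genes the authors tested is unknown. The HP1a gene and Lam were chosen with results of these data known, so counting them raises the share of 5.50%. Genes of the lists that were not in the table were not analysed here. Among all listed rows 35.3% were lower, and the median log2 fold change was 0.41.

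Of the nuclear lamina and envelope list, 3 of 20 matched genes were listed, Lam, koi and kuk, beside 6.46% of all tested features; Lam itself was chosen with results of these data known. All 3 fell, with a median log2 fold change of -0.30. All 3 also passed limma, as did 98.1% of listed rows. The gene koi encodes klaroid, a SUN domain protein of the inner nuclear membrane that takes part in linking the nucleus to the cytoskeleton. It had 6982 and 6454 normalized counts in HP1a RNAi replicates 1 and 2, against 8711 and 8243 in GFP RNAi replicates 1 and 2, or 79.3% of the GFP RNAi mean (limma, adjusted p = 0.024). The gene kuk encodes kugelkern, a farnesylated protein of the nuclear envelope that shapes nuclei in the early embryo. It had 10337 and 10296 normalized counts in HP1a RNAi replicates 1 and 2, against 11980 and 12499 in GFP RNAi replicates 1 and 2, or 84.3% of the GFP RNAi mean (limma, adjusted p = 0.0388). In both genes the groups did not overlap, as in every listed row named here, and the decreases were about as large as that of Lam. Like that of Lam, both limma calls were lost in each fit without 1 of the 4 libraries, with adjusted p from 0.0539 to 0.116 for koi and from 0.0921 to 0.15 for kuk.

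Of the HP1 family, 2 of 7 genes were listed, beside 6.46% of all tested features. They include the HP1a gene, the target of the treatment, which was chosen with results of these data known. The 2 genes went in opposite directions. HP1D3csd, an X-linked gene named for its chromoshadow domain, rose while the HP1a gene fell. It had 318 and 346 normalized counts in HP1a RNAi replicates 1 and 2, against 172 and 230 in GFP RNAi replicates 1 and 2. That was a 1.65-fold increase (limma, adjusted p = 0.0146). The call was lost without HP1a RNAi replicate 2 (limma adjusted p = 0.0524). Per kilobase of exon, the level of HP1D3csd was 407 normalized counts in HP1a RNAi and 246 in GFP RNAi, far below the levels of the HP1a gene given above.

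Of 42 other heterochromatin proteins 1 was listed, stwl, beside 6.46% of all tested features. The gene stwl encodes the DNA-binding protein stonewall that maintains germline stem cells. It had 2458 and 2482 normalized counts in HP1a RNAi replicates 1 and 2, against 2112 and 1980 in GFP RNAi replicates 1 and 2, and rose 1.21-fold (limma, adjusted p = 0.0334). The call was lost when any 1 library was left out, with limma adjusted p from 0.069 to 0.137. The list holds the methyltransferases Su(var)3-9, egg and G9a and the partner Su(var)2-HP2, none of which was in the table. Of 28 matched nuclear pore genes and of 12 genes of lamin processing, such as those for farnesylation, 0 were listed in the authors' DESeq2 results at the adjusted p of 0.05, beside 6.46% of all tested features; their unadjusted values were not analysed here.

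**Figure D3:**
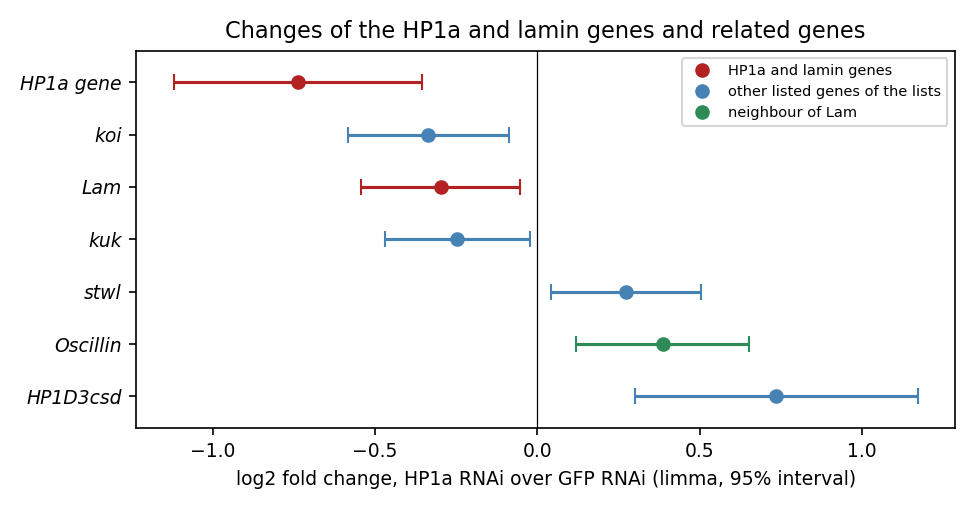
Log2 fold changes of HP1a RNAi over GFP RNAi with 95% intervals (limma, 2 libraries each) for the HP1a gene and Lam (red), the other listed genes of the lists (blue) and Oscillin, the neighbour of Lam (green). The HP1a gene, koi, Lam and kuk lie below 0, with kuk nearest to it at -0.25, and stwl, Oscillin and HP1D3csd lie above 0.

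The surroundings of the genes on chromosome 2L were then examined, with positions as the files list them and strands from the BDGP6 annotation. Within 100 kilobases of the HP1a gene there are 51 other annotated genes, and 0 of them were listed (authors' DESeq2 results; unadjusted values were not analysed here). Of all tested features 6.46% were listed, and how many of the 51 genes the authors tested is unknown. The last 12 bases of the HP1a gene overlap the opposite-strand gene CG8419, and the nearest gene on the other side, Ssb-c31a, starts 224 bases beyond. If counting ignored strand, reads in the 12 shared bases could not be assigned with certainty.

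Within 100 kilobases of Lam there are 54 other annotated genes, and 1 was listed, beside the same 6.46% of all tested features. It was Oscillin, which encodes glucosamine-6-phosphate isomerase. It lies from 5547086 to 5549614 on the same strand as Lam, with 443 bases between the 2 genes. Oscillin had 600 and 599 normalized counts in HP1a RNAi replicates 1 and 2, against 431 and 488 in GFP RNAi replicates 1 and 2. It rose 1.30-fold (limma, adjusted p = 0.0203), in the direction opposite to Lam. The limma call of Oscillin was lost without HP1a RNAi replicate 1, HP1a RNAi replicate 2 or GFP RNAi replicate 1, with adjusted p up to 0.079. Per kilobase of exon its level was 263 normalized counts in HP1a RNAi and 201 in GFP RNAi, against 7720 in HP1a RNAi and 9483 in GFP RNAi for Lam.

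**Figure D4:**
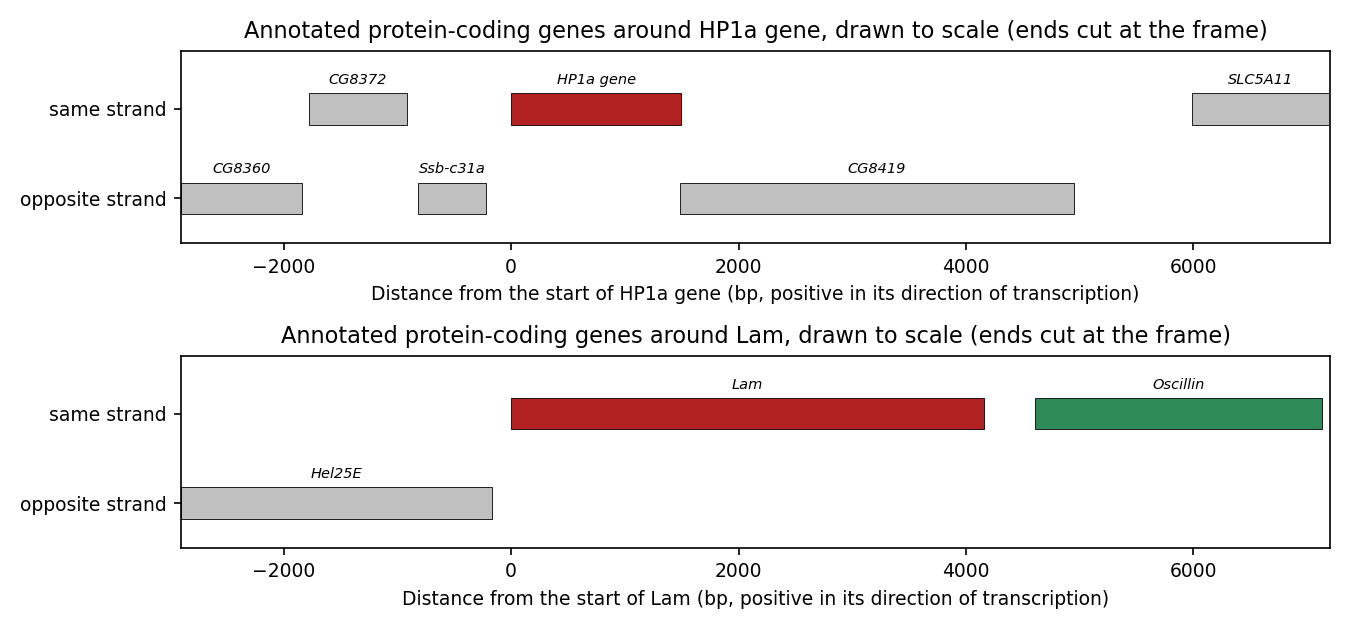
Annotated protein-coding genes around the HP1a gene (top) and Lam (bottom), drawn to scale by their distance in bases from the start of each gene, with genes on the same strand above and on the opposite strand below. The HP1a gene and Lam are red, Oscillin, which was listed, is green, and genes that were not in the table are grey; 443 bases separate Lam from Oscillin.

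The rows whose pattern over the 4 libraries was most like each gene were found by the Euclidean distance between log2(normalized count + 1) values centred on their own mean. For the HP1a gene these were CG8301, mav, IDEFIX_I, CG40485 and Ugt86Dj, at distances from 0.143 to 0.197. The gene mav encodes the TGF-beta family ligand maverick, Ugt86Dj a UDP-glycosyltransferase, and IDEFIX_I is the internal part of an LTR retrotransposon. All 5 were left at between 55.0% and 60.2% of the GFP RNAi mean. All 5 were, like the HP1a gene, lower in replicate 1 than in replicate 2 in both groups. The rows were picked on these same values, so such likeness follows largely from the choice. The closest, CG8301, had 749 and 841 normalized counts in HP1a RNAi replicates 1 and 2, against 1296 and 1348 in GFP RNAi replicates 1 and 2.

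For Lam the most similar rows were Rpt1, Rac2, Sema-1b, CG11652 and Cenp-C, at distances from 0.0244 to 0.0475. Rpt1 encodes an ATPase of the proteasome, Sema-1b a semaphorin and Cenp-C a protein of the inner kinetochore. These 5 were left at between 79.6% and 83.0% of the GFP RNAi mean, and all 5 were higher in replicate 1 than in replicate 2 of HP1a RNAi. Rpt1 had 8172 and 7568 normalized counts in HP1a RNAi replicates 1 and 2, against 9558 and 9551 in GFP RNAi replicates 1 and 2. As for Lam, the GFP RNAi libraries of Rpt1 were nearly equal. The distances describe 4 libraries that all rows share. These rows too were picked on the same values, so their likeness to Lam follows largely from the choice.

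**Figure D5:**
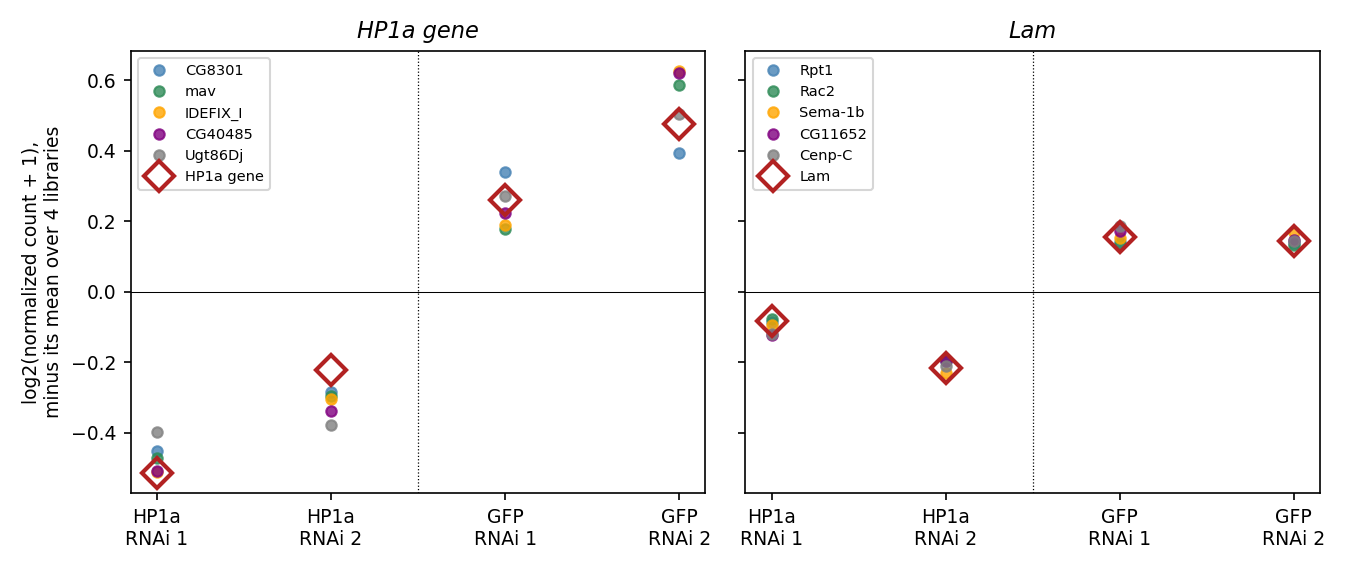
Log2(normalized count + 1) minus its mean over the 4 libraries, by library, for the HP1a gene (left) and Lam (right), shown as red diamonds, and the 5 rows most like each, shown as coloured points. The points of the rows most like Lam lie almost on its diamonds, at distances up to 0.0475, and those most like the HP1a gene are more widely scattered, at distances from 0.143.

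After dKDM4A RNAi, neither the HP1a gene nor Lam was among the 90 features listed, which were 1.19% of the 7533 that the authors tested, and their values in those libraries were not analysed here. Whether they differ between HP1a RNAi and dKDM4A RNAi could therefore not be tested. Of the 5 lists, kuk and Kdm4A itself were in that table. Kdm4A had 2141 and 2675 normalized counts in the libraries labelled dKDM4A RNAi, against 842 and 843 in GFP RNAi, which goes against the label. For kuk there were 7807 and 8160 normalized counts in the libraries labelled dKDM4A RNAi, against 10162 and 10591 in GFP RNAi, which left 76.9% (log2 fold change -0.37 and adjusted p = 0.000139 in the authors' deposited table). Both comparisons used the same 2 GFP RNAi libraries, which were normalized separately in each table.

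Markers of cell types were examined as far as they were listed. Of all tested features 6.46% were listed, and how many of the markers the authors tested is unknown. Of 13 haemocyte markers 3 were listed, Pxn, drpr and NimB1, and their summed normalized counts were 425659 and 355769 in HP1a RNAi, against 200737 and 154888 in GFP RNAi, most of it from Pxn. Of 4 germline markers vas and osk were listed, with sums of 223 and 207 in HP1a RNAi, against 65.5 and 59.9 in GFP RNAi. Of 3 muscle markers bt was listed, with 269 and 331 in HP1a RNAi, against 848 and 932 in GFP RNAi. The part of these differences in the few listed markers in the results for the HP1a gene and Lam was not tested. In bulk RNA, fewer cells of a type and less RNA per cell cannot be told apart. The 3 neuronal and 3 fat body markers were not in the table, and library depth is unknown, because features that were not listed were not analysed here.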

How the data were processed

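The deposited signal values are normalized counts, per the file headers, which do not state how they were normalized. They are taken here to be counts per feature divided by 1 size factor for each library within each table. That division was not established. Deposited log2 fold changes with standard errors, the score (log2 fold change over its error) and both raw and adjusted p-values come from the authors, per the file headers. TopHat, Bowtie and DESeq2 are named in the submitters' processing notes, and no genome build is named in the sources used here. The HP1a gene has the symbol Su(var)205 in the files. Start and end equalled the BDGP6 annotation for 458 of 461 matched genes. Only features with an adjusted p below 0.05 were at hand. Benjamini-Hochberg ranks gave 8287 and 7533 tested features for the HP1a and dKDM4A tables.

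For the 4 libraries of the HP1a table, log2(normalized count + 1) was modelled with limma 3.58.1 in R 4.3.3 over all 535 rows with a mean of at least 1, which removed no row, with Benjamini-Hochberg adjustment. All adjusted p-values called limma come from that model, and it called 525 rows, 98.1%, 183 of them lower. The rows had been selected on the same libraries, so these calls are not independent evidence. Fold changes on this scale understate changes of low features. Python 3.11.15, scipy 1.17.1 and matplotlib 3.10.9 were used for the rest. Depth is unknown, so no counting interval is given.

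Members and gene lists were chosen with earlier results of these data known. Named were both genes, the 5 rows most like each, listed genes of the 5 lists and listed genes within 100 kilobases. Alternatives were pseudocounts of 0.1 and 5, no minimum, a minimum of 100, a replicate block, an intensity trend and each library left out.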

Additional observations from a re-analysis of the deposited data

How the results depend on the processing

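No value of the HP1a gene, Lam or the 15 other named rows changed sign under the 10 alternatives run for each. The HP1a gene kept its limma call in all 10, with log2 fold changes from -0.88 to -0.59 and adjusted p from 0.000577 to 0.0335. Lam kept it under the pseudocounts, the minimum settings, the replicate block and the intensity trend, and lost it in the 4 fits that left out 1 library, with log2 fold changes from -0.36 to -0.23 and adjusted p from 0.0598 to 0.149. Of 150 values of the other named rows 36 were no longer called, all of them with 1 library left out, and 5 rows kept the call throughout. With all libraries limma called 525 listed rows, and between 334 and 383 with 1 library left out, of which between 89 and 117 were lower, against 183 with all. Those fits have fewer samples and assume that the lone library varies like the other group. The difference in the ratio of the HP1a gene to Lam ranged from -0.65 to -0.23 with 1 library left out.

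The replicate numbers give only 2 pairs, and the labels do not say that a number marks a shared batch. Replicate differences in HP1a RNAi and GFP RNAi correlated at 0.237 across the 535 listed rows, which are not independent. With the replicate block limma called 513 rows, the HP1a gene had an adjusted p of 0.000663 and Lam of 0.0262, and the difference in their ratio stayed at -0.44 (exact sign-flip permutation p = 0.5, the smallest that 2 pairs allow). The edgeR test planned on recovered reads was not run, because too few low values were whole multiples of 1 step. Other scalings could not be tried on listed rows alone.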
